A study of Mus musculus with 23 samples.

Results

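The nuclear-encoded subunits of the mitochondrial respiratory chain and ATP synthase were followed across 8 groups of antigen-specific T cells. Members were taken by gene symbol: Nduf subunits of the A, B, C, S and V series without the Ndufaf assembly factors, the Uqcr genes, Cox4 to Cox8, the Atp5 genes and Sdha to Sdhd. This gave 85 of the 21900 rows of the deposited table. Of these, 35 belong to complex I, 4 to complex II, 8 to complex III, 20 to complex IV and 18 to complex V. Ndufa4 and its relative Ndufa4l2 were counted with complex IV, in which Ndufa4 is now placed, and Atp5o has a second row that is kept apart. Transgenic receptors specific for ovalbumin (OVA) peptides mark the CD8 (OT-I) and CD4 (OT-II) T cells studied. Recipients were C57BL/6 mice, and 1 day after transfer of the cells they were given saline, 1 ug of A8B1-OVA, or OVA on its own, either in molar-equivalent amount or at a higher dose. The series title concerns antigen aimed at erythrocytes and T cell anergy, a state of poor response to antigen, and the sources used here do not describe A8B1. Sorting followed 5 days after transfer, with spleen and lymph node cells combined, and each library pooled 3 mice. The groups are therefore OT-I and OT-II cells from mice given A8B1-OVA, molar-equivalent OVA, higher-dose OVA or saline, with n = 3 libraries each, except that the OT-II group given higher-dose OVA has n = 2 (replicates 2 and 3). Saline mice also carried transferred cells, and no group of cells from before transfer was analysed here. Nothing states that libraries are separate beyond these pools, so p-values measure the spread between pools.

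Complexes I and II feed electrons from NADH and succinate into the chain, complex III passes them to cytochrome c, and complex IV hands them to oxygen. Complexes I, III and IV pump protons, and complex V, the ATP synthase, lets them flow back to make ATP. Most subunits come from the nucleus, whereas a small core of complexes I, III, IV and V comes from mitochondrial DNA, and complex II is wholly nuclear. Quiescent T cells depend largely on this pathway, and activated T cells enlarge it together with glycolysis.

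Library totals ran from 26.6 to 73.5 M estimated counts, so that a gene with no count may still reach 0.0408 to 0.113 CPM (counts per M; from 3 counts per library, which covers counting error only). The members together held 1.06 to 1.76% of all counts and the mitochondrially encoded genes 0.461 to 1.48%. Lineage genes followed the labels, with 1 library apart: summed CD8 lineage genes stood at 2490 to 4020 CPM in OT-I libraries, beside 71.5 to 123 in those of OT-II, and summed CD4 lineage genes at 14 to 258 and 775 to 944. The 258 CPM belong to OT-I higher-dose OVA replicate 1, which also had the lowest CD8 sum, 2490. The other OT-I libraries had 14 to 34.3 CPM of CD4 lineage genes. An admixture of CD4 cells in that library was not tested, and it stays in the OT-I comparisons below. Summed myeloid markers ran from 323 to 450 CPM in OT-I cells with A8B1-OVA, 432 to 1050 with saline and 385 to 2880 with molar-equivalent OVA. In OT-II cells they ran from 436 to 640 CPM with A8B1-OVA and from 524 to 1430 with saline. The 18 myeloid markers had a median log2 fold change, A8B1-OVA against saline, of -1.07 for OT-I (0 called lower) and -1.02 for OT-II (2 called lower). Summed NK cell markers ran from 134 to 221 CPM in OT-II cells with A8B1-OVA and from 49.5 to 97.1 with saline. In OT-I cells they ran from 1180 to 1540 and from 1360 to 1500. Counts of called members without 5 libraries with raised markers of other cells are given below, but leaving these out also removes replicates. In OT-I cells these libraries are saline replicate 1, molar-equivalent OVA replicate 2 and higher-dose OVA replicate 1. In OT-II cells they are saline replicate 1 and molar-equivalent OVA replicate 3. No A8B1-OVA library is among them. The part of these markers in the members' differences was not tested. In bulk RNA, fewer cells of a type and less RNA per cell cannot be told apart.

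Promoter windows show how alike the members are upstream. RefSeq (GRCm38.p6) held a window from 250 bases before to 50 after the start site for 68 members, 63 of them with 1 window. Nuclear respiratory factor 1 (NRF1) and the ETS-family factor GABP are textbook regulators of respiratory chain genes. On either strand, the NRF1 core TGCGCA was found for 18 of the 68 members (26.5%), against 11% of 17491 protein-coding genes. The ETS/GABP letters CCGGAAG were found for 17 (25%, against 12.9%), and the YY1 letters AAGATGGC for 10 (14.7%, against 3.57%), of which 7 were in complex I and 3 in complex V. GGGCGG, read by Sp1, was found for 28 (41.2%, against 49.2%) and CCAAT for 30 (44.1%, against 42.3%). No 2 of these motifs were required to be apart, and 32 members held none of the NRF1, ETS/GABP or YY1 letters, whereas 9 held at least 2 of the 3. A match is only a match of letters. The windows below, cut at 30 bases after the start, belong to members whose values are given later: the membrane anchor Sdhd and the flavoprotein Sdha of the same complex, Ndufs8, which passed the test in OT-I cells, Ndufa4, which differed between the cell types in every treatment, and Atp5g3, which passed in OT-I cells. Capitals mark TGCGCA, and CCGGAAG or its reverse complement CTTCCGG.
Sdhd (GRCm38.p6, chr9:50603820-50604099, minus strand): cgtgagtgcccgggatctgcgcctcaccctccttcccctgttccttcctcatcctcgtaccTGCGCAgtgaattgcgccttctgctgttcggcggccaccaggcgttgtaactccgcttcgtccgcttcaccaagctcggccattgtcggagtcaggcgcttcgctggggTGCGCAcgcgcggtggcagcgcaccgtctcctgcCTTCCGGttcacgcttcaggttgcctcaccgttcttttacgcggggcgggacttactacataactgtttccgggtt
Sdha (GRCm38.p6, chr13:74350211-74350490, minus strand): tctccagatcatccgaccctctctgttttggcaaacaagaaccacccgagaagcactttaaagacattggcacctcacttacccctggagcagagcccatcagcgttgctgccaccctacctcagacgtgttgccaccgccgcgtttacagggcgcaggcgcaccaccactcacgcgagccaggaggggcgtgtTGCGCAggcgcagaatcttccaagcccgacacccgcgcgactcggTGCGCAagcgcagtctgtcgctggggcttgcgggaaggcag
Ndufs8 (GRCm38.p6, chr19:3912745-3913024, minus strand): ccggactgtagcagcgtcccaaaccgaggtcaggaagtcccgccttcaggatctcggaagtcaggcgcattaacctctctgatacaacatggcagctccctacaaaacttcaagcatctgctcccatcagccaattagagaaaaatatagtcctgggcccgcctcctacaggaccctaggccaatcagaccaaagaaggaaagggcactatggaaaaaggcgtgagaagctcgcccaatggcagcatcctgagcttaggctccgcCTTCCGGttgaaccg
Ndufa4 (GRCm38.p6, chr6:11907421-11907700, minus strand): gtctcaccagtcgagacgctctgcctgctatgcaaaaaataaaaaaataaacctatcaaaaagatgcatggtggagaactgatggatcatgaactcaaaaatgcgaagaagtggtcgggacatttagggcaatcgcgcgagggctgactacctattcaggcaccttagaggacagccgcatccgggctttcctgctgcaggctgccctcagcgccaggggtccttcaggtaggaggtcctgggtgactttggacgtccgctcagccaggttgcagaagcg
Atp5g3 (GRCm38.p6, chr2:73911297-73911576, minus strand): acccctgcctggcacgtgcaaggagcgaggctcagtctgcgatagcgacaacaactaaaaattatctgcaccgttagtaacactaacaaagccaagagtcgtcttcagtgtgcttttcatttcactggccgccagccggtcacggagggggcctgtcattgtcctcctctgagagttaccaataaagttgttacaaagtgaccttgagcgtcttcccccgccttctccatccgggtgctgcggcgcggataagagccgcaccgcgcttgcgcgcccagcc
The Sdhd window held 2 NRF1 matches and 1 ETS/GABP match, that of Sdha 2 NRF1 matches and that of Ndufs8 1 ETS/GABP match, whereas those of Ndufa4 and Atp5g3 held neither. Members that passed a test therefore occur with these letters (Sdhd) and without them (Ndufa4), and Sdha, which passed none, has them.

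The members lie on 19 chromosomes and are mostly short. Their median transcript length was 742 bases, against 2469 over all genes with a length. By complex it was 870.5 bases in I, 2065.5 in II, 755 in III, 612 in IV and 730.25 in V. Per kilobase of transcript and averaged over all libraries, the ATP synthase beta subunit Atp5b, which carries the catalytic sites, was the highest member of complex V at 811 CPM per kb, followed by the stalk subunit Atp5h at 426, with Atp5g1 lowest at 69.3. In complex IV, Cox6a1 (508) and Cox4i1 (456) led, and in complex I Ndufa3 (298) and Ndufa1 (236), with Ndufb2 lowest at 25.1 CPM per kb. The ranks of Atp5g1 and Ndufb2 rest on assigned transcript lengths of 2675.5 and 2413 bases. Without division by length, Atp5g1 (mean 185 CPM) stood above Atp5g2 (45.2), and Ndufb2 (60.7) above Ndufb4 (36). Uqcr10 (281) and Uqcrh (263) led complex III, where the Rieske iron-sulfur protein Uqcrfs1 was lowest at 92.6. In complex II, the iron-sulfur subunit Sdhb (196) and Sdha (187) stood close together and the membrane anchor Sdhc was lowest at 29 CPM per kb. Of the 85 rows, 28 share at least 10% of their 31-base words with another gene, 4 of them with a protein-coding gene, and values of Uqcrb (54.3%) and Atp5l (69.6%) are therefore uncertain. On GRCm38, with positions from GENCODE M21, Ndufs8 lies at chr19:3908863-3912774 (minus strand), Atp5g3 at chr2:73908447-73911326 (minus), Atp5b at chr10:128083273-128090391 (plus), Ndufa10 at chr1:92439010-92473860 (minus) and Ndufa4 at chr6:11900292-11907497 (minus). All 5 are protein-coding, and their values count reads over the transcripts as a whole.

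In both cell types the widely expressed isoforms of complex IV made up its transcripts. Cox4i1, Cox6a1, Cox6b1, Cox7a2 and Cox8a were each above 70 CPM in all 23 libraries. Their tissue-restricted partners stayed below 1 CPM in every library: Cox4i2, the isoform of lung, ran from 0 to 0.6 CPM, the muscle isoforms Cox6a2 from 0 to 0.556 and Cox7a1 from 0.0564 to 0.62, and the testis isoform Cox6b2 from 0.236 to 0.985. Cox8c was 0 in all 23 libraries, and Cox7b2, Cox8b and Ndufa4l2 reached at most 0.037, 0.0817 and 0.0973 CPM. With the second Atp5o row these 4 failed the filter on low counts, as did Cox4i2 in OT-I, leaving 79 tested members for OT-I and 80 for OT-II. Since that filter can pass a gene through the group in which it is high, counts below refer to tested members only.

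**Figure D1:**
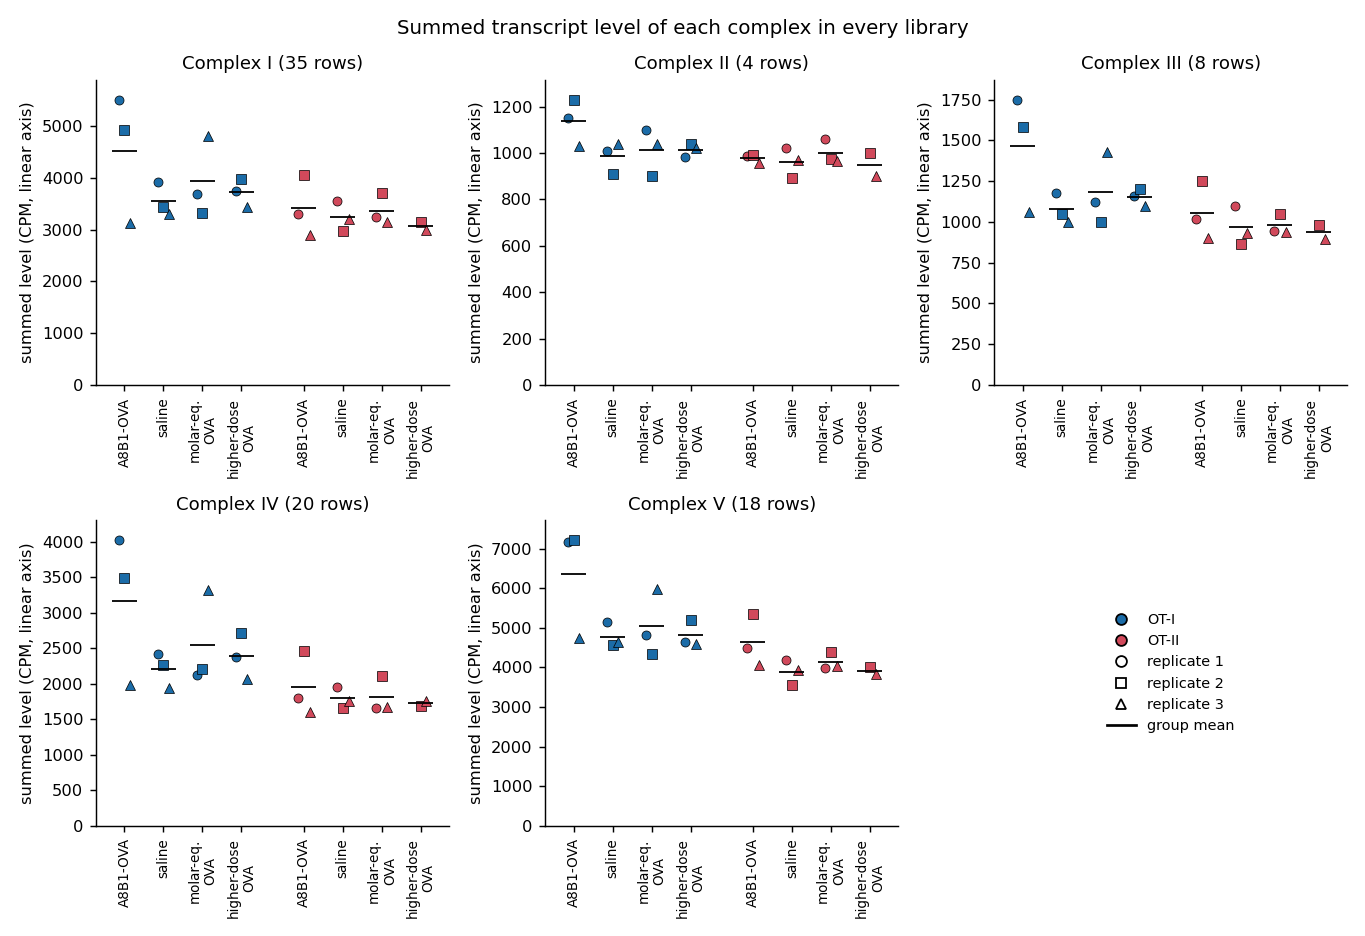
Summed level (CPM, linear axis from 0) of the members of complexes I to V in each of the 23 libraries, by treatment, with OT-I in blue, OT-II in red, symbols for replicates and a line at each group mean. OT-I A8B1-OVA replicates 1 and 2 are the highest libraries for every complex, while replicate 3 lies within or below the range of the OT-I saline libraries.

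In OT-I cells the summed level of all members was 19600, 18400 and 11900 CPM in the A8B1-OVA replicates 1, 2 and 3 and 13700, 12200 and 11900 CPM in the saline replicates. It was 12800, 11800 and 16600 CPM with molar-equivalent OVA and 12900, 14100 and 12200 with higher-dose OVA. In OT-II cells it was 11600, 14100 and 10400 CPM with A8B1-OVA and 11800, 9940 and 10800 with saline, and with free OVA 10900, 12200 and 10700 at the molar equivalent and 10800 and 10400 at the higher dose. OT-I A8B1-OVA replicates 1 and 2 stood above every other library, and replicate 3 stood at the level of the lowest saline library. The sums of complex V were 7160, 7210 and 4740 CPM in OT-I with A8B1-OVA against 5150, 4560 and 4630 with saline, and those of complex IV 4020, 3490 and 1980 against 2420, 2260 and 1940. Complex I gave 5510, 4920 and 3130 CPM against 3930, 3440 and 3300, and complex III 1750, 1580 and 1060 against 1180, 1050 and 1000. Complex II gave 1150, 1230 and 1030 CPM against 1010, 909 and 1040. Replicate 3 lay within the saline range for complexes II to V and below it for complex I.

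Across the 8 groups, the mean summed level was highest in OT-I cells with A8B1-OVA for each complex. For complex I the means were 4520 ± 1240 CPM (SD, n = 3) there, 3940 ± 777 with molar-equivalent OVA, 3720 ± 271 with higher-dose OVA and 3560 ± 331 with saline, and in OT-II cells 3420 ± 583, 3370 ± 302, 3070 ± 99 (n = 2) and 3240 ± 292 in the same order. Neighbours in the order of these means differed by less than the larger of their SDs. Complex III followed the same pattern at a lower level, from 1460 ± 359 CPM in OT-I with A8B1-OVA to 940 ± 59.4 in OT-II with higher-dose OVA. For complex IV the 4 OT-I means lay between 2210 ± 244 (saline) and 3160 ± 1060 CPM (A8B1-OVA), and the 4 OT-II means between 1720 ± 49.5 (higher-dose OVA) and 1950 ± 450 (A8B1-OVA). For complex V they lay between 4780 ± 322 (saline) and 6370 ± 1410 CPM (A8B1-OVA) in OT-I, and between 3890 ± 323 (saline) and 4630 ± 660 (A8B1-OVA) in OT-II. In complexes I, III, IV and V all 4 OT-I means were above all 4 OT-II means. Complex II did not, with 986 ± 68.6 CPM in OT-I with saline below 1000 ± 52.4 in OT-II with molar-equivalent OVA, and its 8 means spanned only 950 ± 70 to 1140 ± 101 CPM. The members' share in these sums differs, since Sdha alone supplied 491 to 630 CPM of complex II and Atp5b 1140 to 2300 CPM of complex V.

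Atp5a1, Atp5g3 and Ndufs8 rose in OT-I cells with A8B1-OVA against saline, and no member fell. These 3 of 79 tested members are 3.8%, against a background of 11.5% of all 14080 tested genes called by edgeR's quasi-likelihood test at a Benjamini-Hochberg adjusted p under 0.05. In all, 77 of the 79 had a log2 fold change above 0, and 29 had an unadjusted p under 0.05. Of the 14080 tested genes, 6777 and 3703 did. The median log2 fold change was 0.41 over the members and -0.02 over all tested genes, and 0.16 over 965 other genes with a transcript under 1000 bases. By complex the median was 0.32 in I, 0.28 in II, 0.43 in III, 0.52 in IV and 0.52 in V.

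Atp5a1, the alpha subunit of the F1 head of ATP synthase, stood at 608, 628 and 531 CPM with A8B1-OVA and at 418, 392 and 370 with saline in OT-I cells. All 3 A8B1-OVA libraries exceeded all saline libraries, and the log2 fold change was 0.57 ± 0.14 (SE; adjusted p = 0.018, edgeR). Atp5g3 encodes 1 of 3 precursors of the same mature c subunit, whose ring turns as protons pass. It stood at 574, 566 and 313 CPM against 298, 277 and 258, with no overlap, although replicate 3 lay near the saline libraries, and the log2 fold change was 0.79 ± 0.22 (adjusted p = 0.032, edgeR). The other precursors were Atp5g1, at 361, 315 and 166 CPM against 224, 197 and 179 (0.48 ± 0.24, adjusted p = 0.23), and Atp5g2, at 110, 107 and 41 CPM against 41.3, 51.9 and 32.7 (1.02 ± 0.35, adjusted p = 0.08). Both overlapped through replicate 3. The catalytic Atp5b was at 1890, 2300 and 1660 CPM against 1800, 1440 and 1800, which overlap, with a log2 fold change of 0.20 ± 0.15 (adjusted p = 0.41, edgeR). The gamma subunit of the rotor, Atp5c1, had 0.45 ± 0.17 (adjusted p = 0.11).

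Ndufs8, an iron-sulfur core subunit of complex I, stood at 198, 208 and 113 CPM with A8B1-OVA and 124, 95.7 and 94.3 with saline. Replicate 3 fell inside the saline range, and the log2 fold change was 0.72 ± 0.21 (adjusted p = 0.044, edgeR). Neither Ndufs1 nor Ndufv1 passed the test. Ndufs1, the largest core subunit, was at 120, 148 and 148 CPM against 132, 139 and 158 (log2 fold change -0.05 ± 0.14, adjusted p = 0.86, edgeR). Ndufv1, which binds NADH, had 0.15 ± 0.13 (adjusted p = 0.5).

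Complex II was uneven among its subunits. Sdha, the flavoprotein that oxidises succinate, was at 502, 538 and 562 CPM with A8B1-OVA and 518, 491 and 595 with saline, a log2 fold change of -0.01 ± 0.12 (adjusted p = 0.96, edgeR). Sdhb was at 327, 350 and 219 CPM against 226, 191 and 197, with replicate 3 inside the saline range, and a log2 fold change of 0.54 ± 0.17 (adjusted p = 0.062, edgeR). The anchors Sdhc (0.31 ± 0.15, adjusted p = 0.2) and Sdhd (0.25 ± 0.14, adjusted p = 0.27) lay between them. In complex III the core protein Uqcrc1 was at 247, 219 and 204 CPM against 181, 156 and 167, without overlap, at 0.40 ± 0.17 (adjusted p = 0.15). Its partner Uqcrc2 had 0.23 ± 0.13 (adjusted p = 0.29) and Uqcrfs1 0.30 ± 0.16 (adjusted p = 0.26).

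In complex IV no member passed the test in OT-I cells. Cox5a was at 276, 267 and 148 CPM against 169, 161 and 147 (log2 fold change 0.53 ± 0.22, adjusted p = 0.15, edgeR), and Cox8a at 500, 423 and 231 CPM against 283, 276 and 215 (0.56 ± 0.27, adjusted p = 0.21). In both, replicates 1 and 2 stood above all saline libraries and replicate 3 stood within them. Cox4i1 had 0.52 ± 0.23 (adjusted p = 0.17), Cox5b 0.62 ± 0.25 (adjusted p = 0.14), Cox6b1 0.73 ± 0.26 (adjusted p = 0.095) and Ndufa4 0.37 ± 0.22 (adjusted p = 0.32). Cox7a1 was low throughout, at 0.463, 0.537 and 0.375 CPM against 0.162, 0.224 and 0.189, without overlap (1.23 ± 0.58, adjusted p = 0.2). Over the 79 tested members, 4 (5.06%) had every A8B1-OVA library above every saline library, namely Atp5a1, Atp5g3, Uqcrc1 and Cox7a1, against 16.9% of all tested genes.

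**Figure D2:**
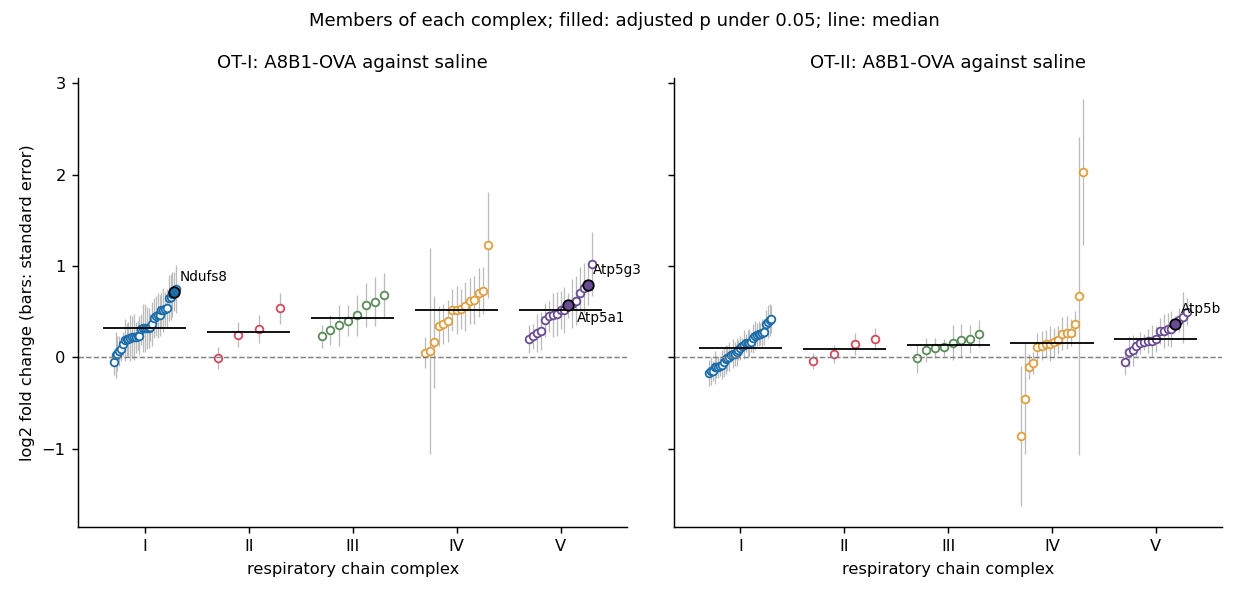
Log2 fold change of each tested member, A8B1-OVA against saline, by complex, for OT-I (left) and OT-II (right), with standard error bars, filled points for an adjusted p under 0.05 and a line at the median. Most points lie above 0, and 3 are filled on the left, 1 on the right.

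The OT-I A8B1-OVA libraries differed among themselves. Replicate 1 lay above every saline library for 76 of the 79 tested members and replicate 2 for 74, but replicate 3 for 4, with 43 inside the saline range and 32 below it. For 48 members replicates 1 and 2 were the highest of the 12 OT-I libraries. The highest to lowest ratio among the A8B1-OVA libraries ran from 1.12 for Sdha to 2.65 for Atp5g2 over the 76 members above 10 CPM. Its median was 2.05 for the 48 members with a transcript under 1000 bases and 1.48 for the 28 longer ones, against 1.28 and 1.16 among the saline libraries. Over these 76 members, which share the libraries and are no independent replicates, length and ratio had a Spearman rho of -0.66. Atp5g1 (2.16) and Ndufb2 (2.15) had high ratios at assigned lengths of 2675.5 and 2413 bases.

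**Figure D3:**
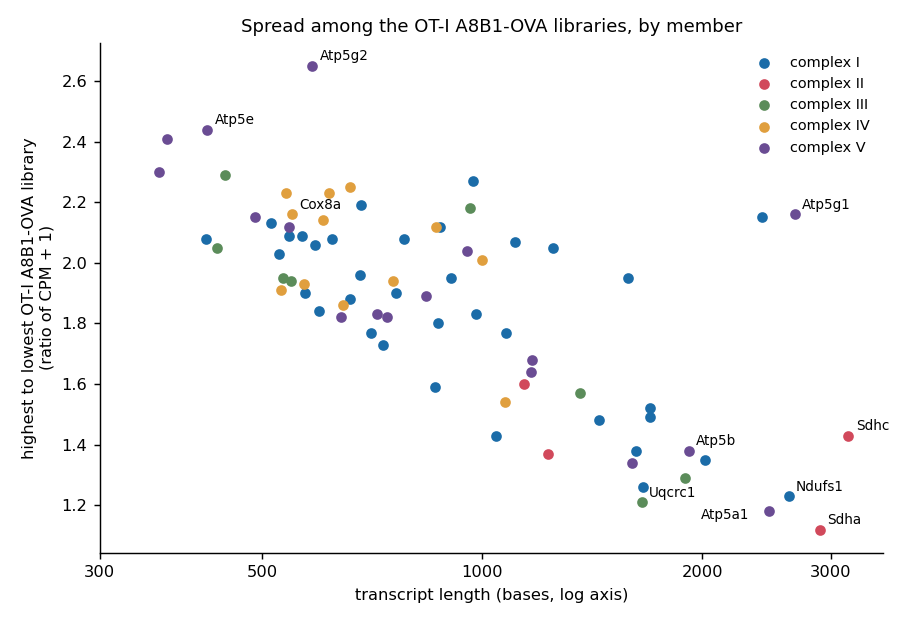
Ratio of the highest to the lowest OT-I A8B1-OVA library (CPM + 1) against transcript length (bases, log axis) for the 76 members above 10 CPM, coloured by complex. Short members mostly have the larger ratios, up to 2.65 for Atp5g2, and the long Sdha has the lowest, 1.12. Among the exceptions are Atp5g1 (2.16) and Ndufb2 (2.15), with assigned lengths of 2675.5 and 2413 bases.

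Other short genes moved in the same libraries. From the OT-I mean, the members' median shift on the log2 scale was 0.61, 0.41 and -0.29 in A8B1-OVA replicates 1, 2 and 3, that of 965 other genes under 1000 bases 0.29, 0.15 and -0.21, and that of genes of 3000 bases or more -0.07, -0.03 and 0.08. OT-I molar-equivalent OVA replicate 3 gave 0.34, 0.24 and -0.12 for the same 3 sets. With a smooth trend on transcript length removed from each library, 16 of 79 members were called higher against a background of 15.3%, and the members' median fell from 0.41 to 0.25. They were 5 of complex I, 1 of II, 1 of III, 2 of IV and 7 of V, among them Atp5g3 (log2 fold change 0.56 ± 0.10, adjusted p = 0.0026, edgeR), Atp5a1 (0.62 ± 0.13, adjusted p = 0.0062), Ndufs8 (0.58 ± 0.12, adjusted p = 0.0078) and Sdhb (0.45 ± 0.11, adjusted p = 0.016). Sdha stayed at 0.03 ± 0.09 (adjusted p = 0.88). Without A8B1-OVA replicate 3, 46 members were called higher, 15 of complex I, 2 of II, 5 of III, 10 of IV and 14 of V, with a background of 17.8%. Without replicate 1 or replicate 2 none was, nor without saline replicate 2 or 3, and 1 was without saline replicate 1. Of all tested genes, 1070, 674, 889, 721 and 901 were called in the same order, against 1620 with every library.

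Against free OVA, no member was called in OT-I cells. For A8B1-OVA against molar-equivalent OVA the background was 10.6%, and DESeq2 called 2 members. With edgeR, 6 of 79 members had an unadjusted p under 0.05, beside 3787 of 14080 tested genes. The median was 0.29, from 0.16 in complex I to 0.33 in complexes IV and V. The lowest p belonged to Atp5g3, at 574, 566 and 313 CPM with A8B1-OVA and 285, 260 and 397 with molar-equivalent OVA (log2 fold change 0.62 ± 0.22, adjusted p = 0.086, edgeR), Atp5a1 (0.38 ± 0.14, adjusted p = 0.094) and Ndufs8 (0.52 ± 0.21, adjusted p = 0.13). For Atp5g3 the groups overlap, as the third OVA replicate exceeded the third A8B1-OVA replicate. With the length trend removed 6 were called, Atp5g3, Ndufc2, Ndufs8, Atp5a1, Cox7c and Sdhb, with a background of 15.1%. Without A8B1-OVA replicate 3, 22 of 79 were called, beside 2181 of 14411 tested genes.

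In the OT-I comparison of A8B1-OVA with the higher OVA dose the background was 2.41% and DESeq2 called 2 members, with a median of 0.29. With edgeR, 9 of 79 members had an unadjusted p under 0.05, beside 2661 of 14080 tested genes. Atp5g3 was at 295, 331 and 269 CPM with higher-dose OVA, so that 1 A8B1-OVA library fell among them (0.67 ± 0.22, adjusted p = 0.12, edgeR). Atp5g2 (0.96 ± 0.35, adjusted p = 0.16) and the complex I subunit Ndufs6 (0.67 ± 0.25, adjusted p = 0.17) followed. Without A8B1-OVA replicate 3, 22 of 79 were called here too, beside 1487 of 14411 tested genes. The OVA groups and saline were compared with one another as well. Higher-dose OVA against saline gave no call (background 2.41%, median 0.11), molar-equivalent OVA against saline none (background 0%, median 0.16) and higher-dose against molar-equivalent OVA none (background 1.04%, median -0.05). In these 3 comparisons edgeR gave 0 members with an unadjusted p under 0.05 and DESeq2 called 0. Of the 14080 tested genes, 1730, 266 and 1732 had such a p in the same order. Comparisons that share the A8B1-OVA or saline libraries are not independent of one another.

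In OT-II cells Atp5b rose with A8B1-OVA against saline, and no other member passed. It stood at 1640, 1750 and 1490 CPM with A8B1-OVA and 1290, 1140 and 1380 with saline, without overlap, and its log2 fold change was 0.37 ± 0.08 (adjusted p = 0.019, edgeR). This 1 of 80 tested members compares with a background of 7.28%, and 9 members had an unadjusted p under 0.05, beside 3123 of 14757 tested genes. The median was 0.16 (0.10 in complexes I and II, 0.13 in III, 0.16 in IV and 0.20 in V). Atp5g1 was at 172, 232 and 156 CPM against 150, 116 and 133, also without overlap (0.50 ± 0.15, adjusted p = 0.059), and Atp5g3 at 299, 384 and 252 CPM against 256, 224 and 232, which overlap (0.41 ± 0.13, adjusted p = 0.095). The alpha subunit Atp5a1 was at 417, 453 and 377 CPM against 397, 314 and 318, with 1 saline library among them (0.29 ± 0.14, adjusted p = 0.25). Ndufs8 was at 119, 150 and 97.4 CPM against 107, 87.1 and 93.2 (0.37 ± 0.15, adjusted p = 0.17), which overlap.

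In complex II of OT-II cells, Sdha was at 548, 505 and 579 CPM with A8B1-OVA and 590, 536 and 565 with saline (log2 fold change -0.04 ± 0.09, adjusted p = 0.88, edgeR), and Sdhd had 0.04 ± 0.10 (adjusted p = 0.86). The low Cox4i2 was at 0.6, 0.268 and 0.199 CPM with A8B1-OVA, above all saline libraries, with 2.03 ± 0.80 (adjusted p = 0.17), close to the zero floor. In 4 members (5%) every A8B1-OVA library exceeded every saline library, against 11.6% of all tested genes. With the length trend removed 6 were called (background 9.05%), Atp5g3 (0.40 ± 0.07, adjusted p = 0.0066), Atp5b (0.37 ± 0.07, adjusted p = 0.0088), Cox5a, Ndufc2, Ndufs8 and Atp5e. None was called without A8B1-OVA replicate 1 or 2 or saline replicate 2, nor without the libraries with raised markers of other cells. In the fits without 1 library, 668, 626 and 694 of all tested genes were called in the same order, against 1074 with every library. Without A8B1-OVA replicate 3, 5 members were called, beside 1011 of all tested genes.

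Against molar-equivalent OVA, no member was called in OT-II cells (background 6.36%, 5 of 80 members at an unadjusted p under 0.05 with edgeR, beside 3000 of 14757 tested genes, 1 call by DESeq2, median 0.11). Atp5g3 was at 209, 250 and 220 CPM with molar-equivalent OVA, all below the 3 A8B1-OVA libraries (0.47 ± 0.13, adjusted p = 0.058, edgeR), followed by Atp5g1 (0.42 ± 0.15, adjusted p = 0.12) and Cox5a (0.40 ± 0.14, adjusted p = 0.13). Against higher-dose OVA, with 2 libraries, none was called either (background 1.34%, 10 of 80 members at an unadjusted p under 0.05, beside 1890 of 14757 tested genes, 1 call by DESeq2, median 0.20). Atp5b was at 1310 and 1280 CPM with higher-dose OVA, below all A8B1-OVA libraries (0.34 ± 0.09, adjusted p = 0.11), and Atp5g1 (0.51 ± 0.17, adjusted p = 0.19) and Ndufa12 (0.44 ± 0.15, adjusted p = 0.23) came next. Among the other groups, higher-dose OVA against saline gave no call (background 0.0271%, 0 members at an unadjusted p under 0.05, median -0.10), molar-equivalent OVA against saline none (background 0%, 1 member, median 0.04) and higher-dose against molar-equivalent OVA none (background 0%, 2 members, median -0.11). Of the 14757 tested genes, 872, 577 and 792 had such a p in these 3 comparisons, and DESeq2 called 0 members in each.

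**Figure D4:**
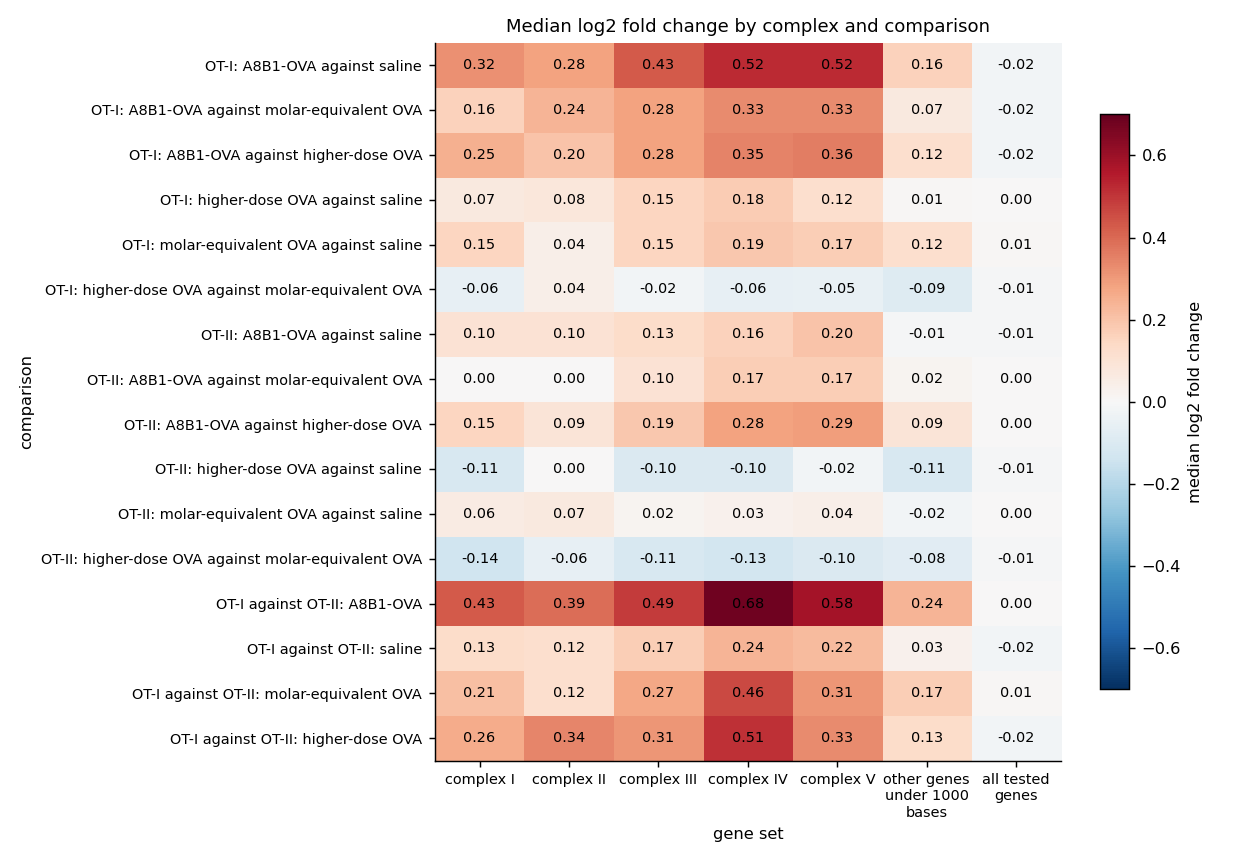
Median log2 fold change (colour scale) of complexes I to V, of other genes with a transcript under 1000 bases and of all tested genes, for each comparison. The comparison of OT-I with OT-II under A8B1-OVA reaches 0.68 in complex IV and OT-I A8B1-OVA against saline 0.52 in complexes IV and V, while OT-I against OT-II with higher-dose OVA reaches 0.51 in complex IV.

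Between the cell types, Ndufa10 and Ndufa4 were higher in OT-I than in OT-II cells under all 4 treatments. Ndufa10, an accessory subunit of the membrane arm of complex I, was at 188, 196 and 145 CPM in OT-I cells against 126, 131 and 127 in OT-II with A8B1-OVA, and at 173, 150 and 172 against 132, 117 and 130 with saline. With molar-equivalent OVA it was at 182, 156 and 197 CPM against 121, 123 and 125, and with higher-dose OVA at 148, 154 and 157 against 121 and 109. Every OT-I library exceeded every OT-II library. The log2 differences, OT-I minus OT-II, were 0.46 ± 0.11 (A8B1-OVA, adjusted p = 0.0051, edgeR), 0.38 ± 0.11 (saline, 0.02), 0.53 ± 0.11 (molar-equivalent OVA, 0.0018) and 0.41 ± 0.12 (higher-dose OVA, 0.037).

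Ndufa4 was at 312, 253 and 163 CPM in OT-I cells against 117, 162 and 122 in OT-II with A8B1-OVA, and at 201, 194 and 165 against 139, 115 and 108 with saline. With free OVA it was at 181, 182 and 270 CPM against 104, 144 and 120 at the molar equivalent, and 181, 222 and 168 against 108 and 115 at the higher dose. Its groups do not overlap, though with A8B1-OVA the lowest OT-I library (163) is next to the highest OT-II library (162). The log2 differences were 0.86 ± 0.21 (adjusted p = 0.0056, edgeR), 0.63 ± 0.21 (0.04), 0.78 ± 0.21 (0.012) and 0.77 ± 0.23 (0.04) for A8B1-OVA, saline, molar-equivalent and higher-dose OVA. Sdha showed no such difference, with -0.03 ± 0.10, -0.08 ± 0.10, -0.13 ± 0.10 and -0.12 ± 0.11 in the same order, the lowest adjusted p being 0.45, and with higher-dose OVA its 3 OT-I libraries (505, 507 and 525 CPM) lay below both OT-II libraries (587 and 528 CPM).

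**Figure D5:**
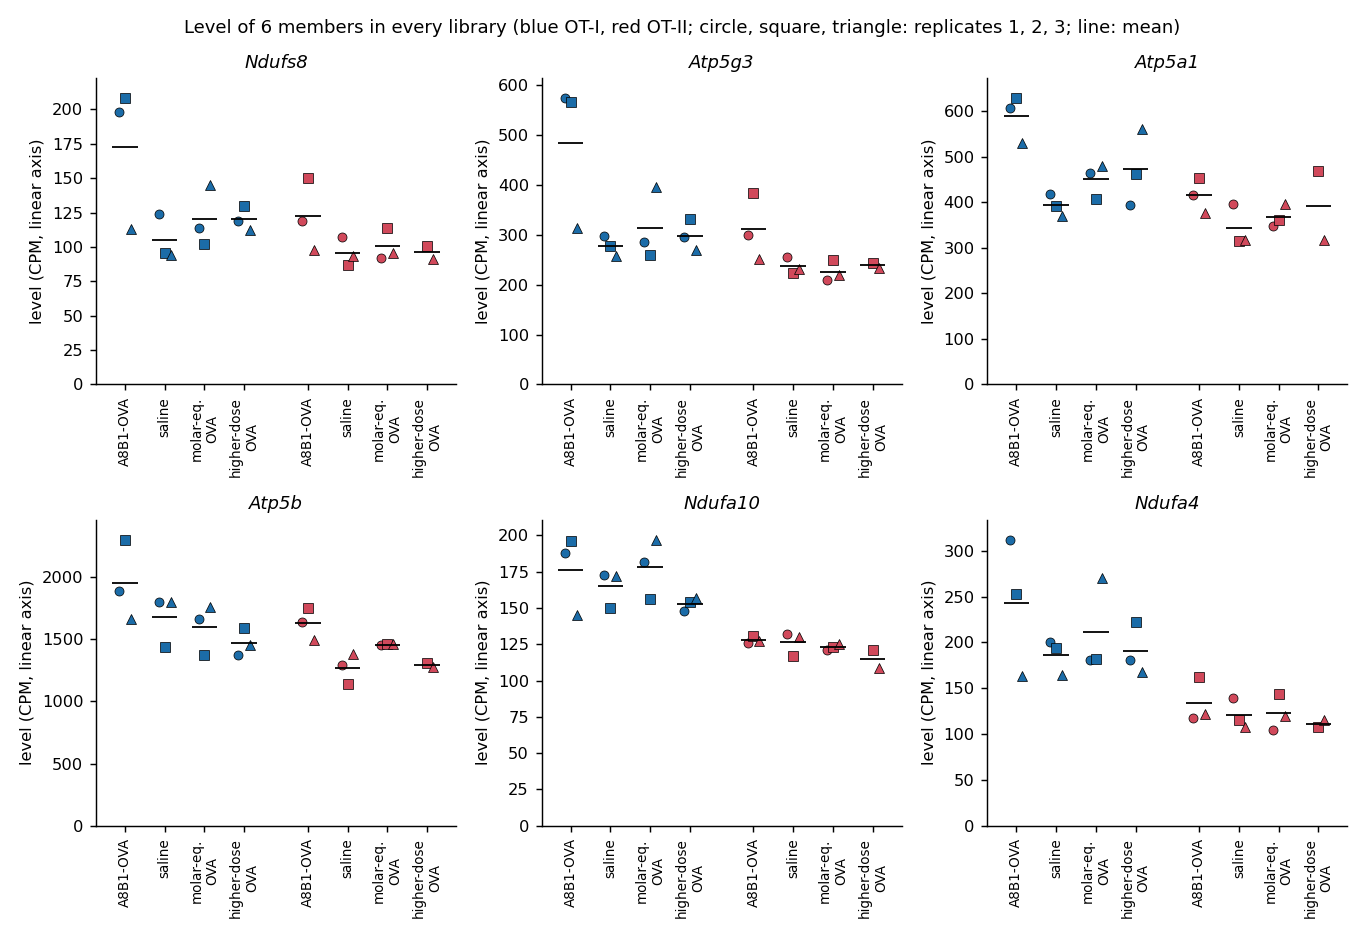
Level (CPM, linear axis from 0) of 6 members in every library, by treatment, with OT-I in blue, OT-II in red, symbols for replicates and a line at each group mean. For Ndufa10 and Ndufa4 every OT-I library lies above every OT-II library of the same treatment, for Atp5a1 the OT-I A8B1-OVA libraries lie above the OT-I saline libraries, and for Atp5b the OT-II A8B1-OVA libraries lie above the OT-II saline libraries.

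With A8B1-OVA, 26 of 80 tested members (32.5%) were higher in OT-I than in OT-II cells and none was lower, against a background of 20.6%. They were 5 of complex I, 2 of II, 3 of III, 8 of IV and 8 of V. The median difference was 0.48 over the members (0.43 in I, 0.39 in II, 0.49 in III, 0.68 in IV and 0.58 in V) and 0.24 over other genes under 1000 bases. The largest differences among the called members were those of the c-subunit gene Atp5g2 (log2 difference 1.00 ± 0.35, adjusted p = 0.05 after rounding and just under the threshold, edgeR), Cox8a (0.99 ± 0.26, adjusted p = 0.0093), Ndufa4, the ATP synthase epsilon subunit Atp5e (0.84 ± 0.26, adjusted p = 0.024), Cox5a (0.77 ± 0.20, adjusted p = 0.01) and Cox5b (0.77 ± 0.23, adjusted p = 0.022). Cox8a was at 500, 423 and 231 CPM in OT-I against 173, 259 and 149 in OT-II, where replicate 3 of OT-I lay below the highest OT-II library. Sdhd was at 197, 211 and 154 CPM against 121, 141 and 118, without overlap (0.57 ± 0.12, adjusted p = 0.0024), and Sdhb was higher by 0.46 ± 0.15 (adjusted p = 0.041). Atp5a1 had 0.50 ± 0.14 (adjusted p = 0.018), and in complex III Uqcrc2 had 0.38 ± 0.11 (adjusted p = 0.018) and Uqcrfs1 0.51 ± 0.15 (adjusted p = 0.017). In 7 members (8.75%) every OT-I library exceeded every OT-II library, against 16.9% of all tested genes, and in the low Cox4i2 every OT-I library was lower (-2.26 ± 1.23, adjusted p = 0.21).

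That count depended on scaling and on single libraries. With the plain library total in place of TMM factors, which shifts the median of all genes by -0.19, 5 members were called and the members' median was 0.28. With the length trend removed 36 were (background 23.6%). Leaving out 1 library gave 2 calls without OT-I replicate 1, 4 without OT-I replicate 2, 68 without OT-I replicate 3, and 5, 48 and 3 without OT-II replicates 1, 2 and 3. Of all tested genes, 2327, 1823, 3717, 1980, 3102 and 2024 were called in the same order, against 3135 with every library. Ndufa10 and Sdhd were called under every alternative tried. Ndufa10's difference then ran from 0.27 to 0.59.

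With saline, 3 members were higher in OT-I cells (background 15.5%), Ndufa4, Ndufa10 and Atp5b, the last at 1800, 1440 and 1800 CPM against 1290, 1140 and 1380 (0.40 ± 0.12, adjusted p = 0.028, edgeR). The median difference was 0.18. In 22 members (27.5%) every OT-I library exceeded every OT-II library, and in none was every one lower. Over all tested genes these shares were 18.2% and 16.5%. Same-numbered saline libraries of both cell types deviated together, and with the replicate number as a block 6 members were called. None was called without OT-I replicate 1 or 3, OT-II replicate 2, or the libraries with raised markers. In the fits without 1 library, 1772, 1731 and 1884 of all tested genes were called in the same order, against 2356 with every library. With molar-equivalent OVA 5 were higher (background 16%, median 0.29): Ndufa4, Ndufa10, Cox5a, at 159, 151 and 238 CPM against 96.3, 116 and 96.2 (0.83 ± 0.20, adjusted p = 0.0074), Cox8a (0.79 ± 0.25, adjusted p = 0.039) and Uqcrc2 (0.37 ± 0.11, adjusted p = 0.024). Here 16 (20%) had every OT-I library above every OT-II library and none the reverse, against 15% and 14.7% of all tested genes. Leaving out 1 library moved the count from 1 (without OT-I replicate 3) to 9 (without OT-I replicate 2), with 2 and 3 without OT-II replicates 1 and 3. Of all tested genes, 1790, 2538, 1703 and 1882 were called in the same order, against 2433 with every library. With higher-dose OVA only Ndufa4 and Ndufa10 passed (background 10.1%, median 0.32). At 3 against 2 libraries, 58 members (72.5%) had every OT-I library higher and 1 (1.25%) every OT-I library lower, against 20.9% and 21.5% of all tested genes. The count was 1 without OT-I replicate 1, the library with 258 CPM of CD4 lineage genes, and 0 without OT-I replicate 2 or 3. Of all tested genes, 1801, 874 and 1008 were called in the same order, against 1534 with every library. Fits that leave 1 OT-II library are not given here.

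Whether A8B1-OVA moved the members differently in the 2 cell types was tested as an interaction over all libraries. For A8B1-OVA against saline no member was called (background 0.433%, 1 of 80 members at an unadjusted p under 0.05, beside 1408 of 15235 tested genes, median 0.30). The largest estimate was that of Cox7a1 at 2.11 ± 0.86 (adjusted p = 0.42, edgeR), a gene under 1 CPM, and Cox6b1 had 0.65 ± 0.34 (adjusted p = 0.6). Against molar-equivalent OVA (background 0.282%, median 0.19) and against higher-dose OVA (background 0.00656%, median 0.13) none was called. In both, 0 members had an unadjusted p under 0.05, beside 1309 and 786 of 15235 tested genes. DESeq2 called 0 members in each. The plain library total shifts the median of all genes by -0.12, -0.10 and -0.11 in these 3 tests. Atp5a1, Atp5g3, Ndufs8 and Atp5b therefore passed in 1 cell type each, and no difference between the cell types' responses was shown.

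Other genes of the pathway were read from lists. Of the 13 subunits encoded in mitochondrial DNA, none was called for A8B1-OVA against saline (the median was 0.17 for OT-I, -0.09 for OT-II, with 0 members at an unadjusted p under 0.05 in either). Their summed level varied widely, at 16300, 16300 and 11000 CPM in OT-I with A8B1-OVA, 10500, 14300 and 9290 with saline, and 4970, 9700 and 7580 against 7750, 7720 and 7410 in OT-II. With A8B1-OVA, 6 of the 13 were higher in OT-I than in OT-II cells, among them mt-Co1, the catalytic subunit of complex IV (1.20 ± 0.30, adjusted p = 0.0076), and mt-Nd4l (1.32 ± 0.35, adjusted p = 0.01). With saline 1 was, with molar-equivalent OVA 6 and with higher-dose OVA none, beside 20.6%, 15.5%, 16% and 10.1% of all tested genes in the 4 treatments. Of 48 tested assembly factors, 2 rose in OT-I cells with A8B1-OVA against saline, Ndufaf7, an assembly factor of complex I (0.47 ± 0.10, adjusted p = 0.012), and Cox19 (0.62 ± 0.16, adjusted p = 0.025), and Lyrm7, which serves the insertion of the Rieske protein, fell by 0.73 ± 0.18 (adjusted p = 0.022). In OT-II cells Ndufaf7 (0.42 ± 0.11, adjusted p = 0.045) and Acad9 (0.47 ± 0.12, adjusted p = 0.038) rose. These 3 calls in OT-I and 2 calls in OT-II stand beside 11.5% and 7.28% of all tested genes. The assembly factors' medians were 0.09 and 0.06, beside 0.41 and 0.16 for the structural subunits.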

How the data were processed

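Polyadenylated RNA was measured in 23 libraries of sorted OT-I and OT-II cells, made with the SmartSeq protocol per the labels. Per the submitters' processing notes, the tools named are bcl2fastq and kallisto 0.46.1, and the build is GRCm38. What the authors deposited is 1 table of estimated counts per gene, in whole numbers; its annotation release, strand and rounding were not stated. Lengths and positions came from GENCODE M21 and promoter windows from RefSeq GRCm38.p6.

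Groups followed the labels. The labels call the CD4 cells by nearly the same name as the CD8 cells, so titles and source names were used. The estimated counts were fitted per cell type with edgeR 4.0.16 in R 4.3.3 by its quasi-likelihood test with 1 coefficient per group and no block, after TMM scaling and filterByExpr (min.count 10, min.total.count 15). OT-I was compared with OT-II, and the responses with each other, in 1 fit of all libraries. The filter left 14080 genes for OT-I, 14757 for OT-II and 15235 for both together. Calls needed an adjusted p (Benjamini-Hochberg, over all tested genes) under 0.05. Levels are CPM with TMM factors, marker sums CPM of the plain total, ± in log2 values the standard error. DESeq2 1.42.0, other scalings, no filter, a length trend, a replicate block and left-out libraries were the alternatives. The code was tested on simulated data.

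Same-numbered saline libraries of the 2 cell types had correlated deviations (0.13 to 0.28 over 3 pairs), and no other groups met that rule. The labels do not say what the numbers share.

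Values are given for core subunits (1 is not reported here), isoform pairs, called members (the 6 largest where more were called), the 2 highest and the lowest member per complex by level per kb, the 3 lowest p where A8B1-OVA gave no call, and up to 4 called genes of other lists. The members and lists were chosen with earlier results of these data known.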

Additional observations from a re-analysis of the deposited data

How the results depend on the processing

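No result of the 522 single-member values that were recomputed reversed its sign: 316 had the same call and 206 lost it. Counts of called members that differed by more than 1.5 times from those in the results were as follows, and smaller moves included 35 by DESeq2 and 28 with the replicate block for OT-I against OT-II with A8B1-OVA (26 in the results). DESeq2 called 11, 2 and 2 members for OT-I A8B1-OVA against saline, molar-equivalent and higher-dose OVA, 3, 1 and 1 for OT-II, and 6, 9 and 4 for OT-I against OT-II with saline, molar-equivalent and higher-dose OVA. The plain library total gave 2 and 1 for OT-II A8B1-OVA against saline and molar-equivalent OVA, and 5 for OT-I against OT-II with A8B1-OVA. Upper-quartile factors gave 9 there and 0 with higher-dose OVA, where no filter on low counts gave 1. Removing the length trend gave for A8B1-OVA 16, 6 and 1 calls in OT-I cells, then 6 and 2 in OT-II cells, and 10, 11 and 16 for OT-I against OT-II with saline, molar-equivalent and higher-dose OVA. Without 5 libraries with raised markers of other cells, 1 member was called for OT-I A8B1-OVA against saline, 0 for OT-II, and 14, 0 and 1 for OT-I against OT-II with A8B1-OVA, saline and higher-dose OVA. A fit of only the 2 groups gave 0 for OT-II A8B1-OVA against saline. The cause of these moves was not tested. The share of all genes called in these fits is given only for some with the length trend removed, in the results. For the others, whether calls over all genes moved alike cannot be read from these counts.

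With the replicate block, 1 member was called for OT-I A8B1-OVA against saline, and 6 and 8 for OT-I against OT-II with saline and molar-equivalent OVA, and 3 with higher-dose OVA (2 in the results). Same-numbered libraries met the rule for correlated deviations with saline only. Correlations between the cell types were 0.01 to 0.25 with A8B1-OVA, beside 0.13 to 0.28 with saline. What the numbers share is not stated. The share of all genes called with the block is not given here.

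Leaving out 1 library gave 0 to 46 members for OT-I A8B1-OVA against saline, 0 to 22 against each free OVA dose, 0 to 5 and 0 to 1 for OT-II against saline and molar-equivalent OVA, and 2 to 68, 0 to 2, 1 to 9 and 0 to 1 for OT-I against OT-II with A8B1-OVA, saline, molar-equivalent and higher-dose OVA. All other comparisons stayed at 0 to 0. Of the members called within a cell type, Atp5a1 lost its call in 0 of 8 other alternatives but in 4 of 6 without 1 library (adjusted p up to 0.089), Atp5g3 in 2 and 5, Ndufs8 in 4 and 5, and Atp5b of OT-II in 2 of 8 and 3 of 6. Under the length trend, the medians of OT-I higher-dose against molar-equivalent OVA (-0.05 to 0.04) and OT-II higher-dose OVA against saline (-0.10 to 0.01) changed sign.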

Other observations

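Enzymes and carriers around the chain held a few calls for A8B1-OVA against saline. They stand beside 11.5% of all tested genes called in OT-I cells and 7.28% in OT-II cells. Fumarase, Fh1, rose in both cell types, from 57.3 ± 1.28 to 82.3 ± 17.6 CPM in OT-I (SD, n = 3; log2 fold change 0.51 ± 0.14, adjusted p = 0.03, edgeR) and from 46.4 ± 2.94 to 71 ± 4.39 CPM in OT-II (0.63 ± 0.10, adjusted p = 0.0021). It was the only called gene of 16 in the citric acid cycle list in OT-I, and Idh3a of isocitrate dehydrogenase was the other in OT-II (0.36 ± 0.09, adjusted p = 0.026). Atpif1, the inhibitor of the ATP synthase, also rose in both, from 37.7 ± 5.07 to 75.3 ± 28.5 CPM in OT-I (0.99 ± 0.28, adjusted p = 0.036) and from 30 ± 4.95 to 54 ± 17.1 CPM in OT-II (0.86 ± 0.21, adjusted p = 0.025). Of the 19 tested carriers and shuttles, Vdac1, the outer membrane channel, rose in OT-I (37.2 ± 10.6 to 99.9 ± 54.1 CPM; 1.41 ± 0.38, adjusted p = 0.03), and the ADP/ATP carrier Slc25a5 (0.41 ± 0.09, adjusted p = 0.017) and Etfb (0.58 ± 0.16, adjusted p = 0.045) rose in OT-II. The list of 15 regulators of mitochondrial genes had 0 calls in either cell type with edgeR, with 2 genes at an unadjusted p under 0.05 in each. Such a p was found for 3703 of 14080 tested genes in OT-I and 3123 of 14757 in OT-II.

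Between the cell types, the other ADP/ATP carrier, Slc25a4, was higher in OT-I cells under all 4 treatments, at 241 ± 21.1 against 88.9 ± 13.2 CPM with A8B1-OVA (1.44 ± 0.16, adjusted p = 2.3e-06) and 204 ± 9.28 against 77.6 ± 14.8 CPM with saline. Among the regulators, Myc was higher in OT-I with A8B1-OVA (285 ± 14.1 against 149 ± 18.3 CPM; 0.94 ± 0.11, adjusted p = 8.6e-06), and Polg, the mitochondrial DNA polymerase, was lower (119 ± 15.3 against 200 ± 17.7 CPM; -0.75 ± 0.17, adjusted p = 0.0038). With saline the differences had the same sign, at 295 ± 16.1 against 118 ± 4.81 CPM for Myc (log2 difference 1.33) and 94.7 ± 6.18 against 228 ± 16.4 CPM for Polg (-1.27).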
